A study of Mus musculus with 3264 samples.

Results

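Dusp2, Dusp4, Dusp5, Dusp6, Spry1, Rgs1, Rgs2 and Rgs16 are 8 genes of proteins that damp signals inside cells. They were read by name in a table of 24781 genes for single cells of a cell line mixture and in a table of 25051 genes for single blood cells, and both tables hold all 8. They were picked with earlier results of these data known, so their levels are given as a description. Each well was meant to hold 1 mouse cell. Mouse lines of 3 kinds were mixed, a leukemia, a T cell and a hematopoietic progenitor (HPC) line, for which the labels name no strain, clone, culture time or treatment other than the way of isolation. Most cells were picked by ALPS, an automated imaging and picking system, and some by a fluorescence-activated sorter (FACS). Target wells were picked by line on 4 plates (126 leukemia, 120 T and 73 HPC wells with values). Random wells were picked at random from the mixture (4 plates, 330 wells), FACS wells were sorted by line (2 plates, 179 wells), and time-lapse wells were picked after time-lapse imaging (16 plates, 1008 wells). Blood mononuclear cells (PBMC) came from C57BL/6J mice of unstated age and number and were picked after time-lapse imaging on 8 plates. Of these, 339 wells had at least 300 detected genes.

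Dual-specificity phosphatases, encoded by Dusp genes, remove phosphates from MAP kinases such as ERK. Several of them are themselves induced by ERK signalling and so close a feedback loop. Dusp6 encodes a cytoplasmic phosphatase selective for ERK, Dusp2, Dusp4 and Dusp5 encode inducible nuclear phosphatases, and Spry1 encodes Sprouty1, an inhibitor of signalling from receptor tyrosine kinases to Ras. Regulators of G protein signalling, encoded by Rgs genes, speed up GTP hydrolysis by G protein alpha subunits and so shorten signals from receptors such as chemokine receptors. Rgs2 acts mainly on Gq, Rgs1 is known for damping chemokine responses of lymphocytes, and Rgs16 is an inducible member of the family.

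RefSeq promoter sequences (GRCm38.p6) were given for 6 of the 8 members. The bases before the RefSeq start site are shown for Rgs2, which had the largest mean difference between ways of picking (2.73 on the log2 scale), for Dusp6, which ran from 136 to 872 CPM (counts per 1000000) over time-lapse plates in wells of the T profile, and for Dusp5, which was nearly undetected. Capitals mark CGTCA, the half-site of the cAMP response element, and the CArG box, the binding sequence of serum response factor. AP-1 sites (TGANTCA) and ETS sites (CCGGAA) were also searched, all on both strands, and none of these motifs overlapped another in the sequences shown.
Rgs2, minus strand, chr1:144004150-144004399: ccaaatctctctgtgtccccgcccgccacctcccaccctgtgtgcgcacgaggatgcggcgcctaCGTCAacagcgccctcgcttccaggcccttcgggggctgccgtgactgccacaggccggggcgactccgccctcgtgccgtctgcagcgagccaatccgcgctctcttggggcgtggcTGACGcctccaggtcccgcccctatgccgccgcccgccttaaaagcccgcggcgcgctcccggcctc
Dusp6, plus strand, chr10:99262981-99263230: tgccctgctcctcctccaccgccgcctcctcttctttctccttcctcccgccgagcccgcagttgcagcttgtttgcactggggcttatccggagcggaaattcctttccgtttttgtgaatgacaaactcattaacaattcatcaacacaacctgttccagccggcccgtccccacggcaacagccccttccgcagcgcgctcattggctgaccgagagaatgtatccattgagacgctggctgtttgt
Dusp5, plus strand, chr19:53528895-53529144: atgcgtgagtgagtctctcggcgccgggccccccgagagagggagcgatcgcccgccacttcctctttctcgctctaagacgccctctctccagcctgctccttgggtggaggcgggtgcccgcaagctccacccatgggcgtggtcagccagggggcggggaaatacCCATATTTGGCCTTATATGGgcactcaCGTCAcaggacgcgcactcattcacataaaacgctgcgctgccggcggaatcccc
The Rgs2 window holds 2 CGTCA half-sites, 1 on each strand. The Dusp5 window holds 2 CArG boxes and 1 CGTCA, and the Dusp6 window holds none of the motifs searched. Of 32851 mouse promoter windows of the same length, 17.8% hold CGTCA, 1.47% a CArG box, 6.75% TGANTCA and 12.03% CCGGAA. The windows of Dusp2, Spry1 and Rgs16 hold none of them. A match is a description of the letters only.

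In the GENCODE annotation of the same build, Rgs2 lies on the minus strand of chromosome 1 from 143999338 to 144004161, and Rgs1 on that strand from 144242296 to 144249242. Rgs16 lies on the plus strand of chromosome 1 from 153740349 to 153745468. The other genes lie on plus strands of chromosomes 2 (Dusp2), 3 (Spry1), 8 (Dusp4), 10 (Dusp6) and 19 (Dusp5). Dusp5 starts at 53529109 in this annotation. The Dusp5 and Rgs2 windows shown above, placed by RefSeq starts, therefore reach some bases into these genes. Cell line wells held between 10005 and 140363 counts, with group medians of 23611 to 58932. The ribosomal RNA precursor Rn45s took 4.69 to 6.06% of counts in FACS groups and 8.50 to 13.9% in the others. A well outside the target plates was assigned to the line whose target profile it resembled most, with the 8 members left out. Time-lapse T wells are thus wells closest to the T profile. They held the T cell surface gene Thy1 at 6.21 CPM against 656 CPM in random T wells, and may not be the same line. FACS labels matched the profile in 60 of 179 wells, so FACS wells are grouped by profile, and 3 HPC-labelled target wells on plate 4 resembled other lines. Levels are CPM, the summed counts scaled to a total of 1000000, for a group on a plate. Differences are of log2(CPM + 1), and a difference counts as higher or lower when its mean is at least 1 and its direction is the same on every target plate or in at least 85% of plate pairs. No p-value was computed, since each group counts as 1 sample, and plates may only measure technical spread. Intervals of shares are exact Clopper-Pearson 95% intervals, and intervals of count ratios are exact binomial ones. Where a count is 0, the share it allows is given as 3 wells of the total, a simpler and smaller bound than the upper end of that interval. All of these cover counting error only.

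Among the phosphatases, Dusp2 marked the HPC and leukemia wells against the T wells. In target wells it stood at 49.9, 42.6, 16.2 and 49.5 CPM on the 4 plates in leukemia wells, and at 69.4, 71.1, 92.8 and 80.02 CPM in HPC wells. In T wells it stood at 2.58, 1.89, 4.31 and 5.97 CPM. The 3 lines did not overlap, and only leukemia wells of plate 3 were far below their other plates. A Dusp2 count was found in 73.97% of HPC wells (62.4 to 83.5), 49.2% of leukemia wells (40.2 to 58.3) and 13.3% of T wells (7.82 to 20.7). The log2 difference between HPC and T wells was 4.15 (plates 3.54 to 4.64), a count ratio of 20.4 (12.8 to 35.7). The same order held on 4 of 4 random plates and on 2 of 2 FACS plates in both steps, from T to leukemia and from leukemia to HPC. In time-lapse wells, where T stands for the T profile only, HPC exceeded T on 16 of 16 plates, and leukemia exceeded T on 14 of 16.

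Dusp4 had the opposite pattern in HPC wells. In target wells its levels were 16.1, 9.68, 25.3 and 17.1 CPM in leukemia wells and 4.30, 15.1, 24.8 and 30.5 CPM in T wells, which overlapped. HPC wells held 0, 2.82, 3.64 and 12.1 CPM, below both other lines on each plate. The highest of these was on plate 4, the plate of the 3 HPC-labelled wells with other profiles. The difference between HPC and T wells was -2.06 (plates -2.48 to -1.27), and between HPC and leukemia wells -2.14 (-4.09 to -0.47). In HPC wells a Dusp4 count was found in 10.96% of target, 7.21% of random, 5.77% of FACS and 5.73% of time-lapse wells, and in all other groups in 22.2% or more. HPC wells lay below leukemia wells on every plate of all 4 ways of picking.

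Dusp6 was present in all lines. Its levels in target wells were 107, 79.3, 90.004 and 85.3 CPM in leukemia wells, 47.3, 53.4, 76.02 and 79.6 CPM in T wells and 69.4, 46.5, 21.8 and 45.3 CPM in HPC wells. Leukemia wells were the highest on each plate, T and HPC wells overlapped, and the HPC wells of plate 3 were the lowest. The difference of HPC from leukemia wells was -1.07 (plates -1.995 to -0.62), and that of T from leukemia wells -0.52 (-1.17 to -0.10), which did not reach the limit of 1. Without target plate 3 the difference between HPC and leukemia wells was -0.76 for Dusp6 and 0.63 for Dusp2, and neither then counted. Leukemia wells exceeded T wells in Dusp6 on 4 of 4 target, 3 of 4 random and 2 of 2 FACS plates. On 16 of 16 time-lapse plates they lay below the wells closest to the T profile (-1.54), which may not be the T line.

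Dusp5 and the Ras pathway inhibitor Spry1 were scarce. Dusp5 had 10 counts in 9 of 1836 cell line wells (0.49%), 5 of them in target T wells. Spry1 had 215 counts in 171 wells, with group levels of 0.178 to 5.93 CPM. A Spry1 count was found in 15.1% of leukemia and 16.7% of T target wells but in 5.48% of HPC target wells, and in 16.2% of random HPC wells (9.90 to 24.4) against 0.763% of time-lapse HPC wells (0.0926 to 2.73). In counts per total, random exceeded time-lapse HPC wells by a ratio of 31.4 (7.79 to 274) from 24 and 2 counts. The random HPC plates held 11.9, 10.6, 1.25 and 0 CPM, so 23 of the 24 counts came from plates 1 and 2. Over plate pairs the difference of time-lapse from random wells was -1.98 (-3.68 to 1.95), below 0 in 73.4% of pairs, and the gene did not reach the minimum of 10 CPM.

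Among the G protein regulators, Rgs2 separated T wells from the others. In target wells it stood at 241, 238, 168 and 169.6 CPM in leukemia wells, 207, 256, 407 and 238 CPM in HPC wells, and 10.7, 41.2, 8.63 and 12.6 CPM in T wells. T wells did not overlap with either line, HPC and leukemia wells did, and T wells of plate 2 stood above their other plates. A count was found in 86.5% of leukemia, 86.3% of HPC and 26.7% of T wells. The count ratio of leukemia to T wells was 11.1 (8.99 to 14.1) and that of HPC to T wells 14.8 (11.9 to 18.8). The difference of HPC from leukemia wells was 0.41 (-0.22 to 1.27) on target plates and 1.07 (0.75 to 1.86) on random plates. Leukemia wells exceeded T wells on all target, random and FACS plates but on 10 of 16 time-lapse plates, where T stands for the T profile only.

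Rgs1 was found mainly in HPC wells. Target HPC wells held 20.3, 11.3, 18.2 and 24.2 CPM from 46 counts in 27.4% of wells (17.6 to 39.1). Target leukemia wells had 0 counts (0 of 126 wells, which allows a share of up to 2.38%, taken as 3 wells of the total), and T wells 2 counts. HPC wells held at least 25.996-fold more than leukemia wells at a floor of 3 counts over the group. The 8 leukemia and T groups of all ways of picking held 13 Rgs1 counts, 10 of them in time-lapse wells of the T profile, and a count was found in 0 to 2.52% of their wells, against 17.3 to 53.2% in the HPC groups. Rgs16 had 0 counts in all 1836 cell line wells, which allows a share of up to 0.163%.

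**Figure D1:**
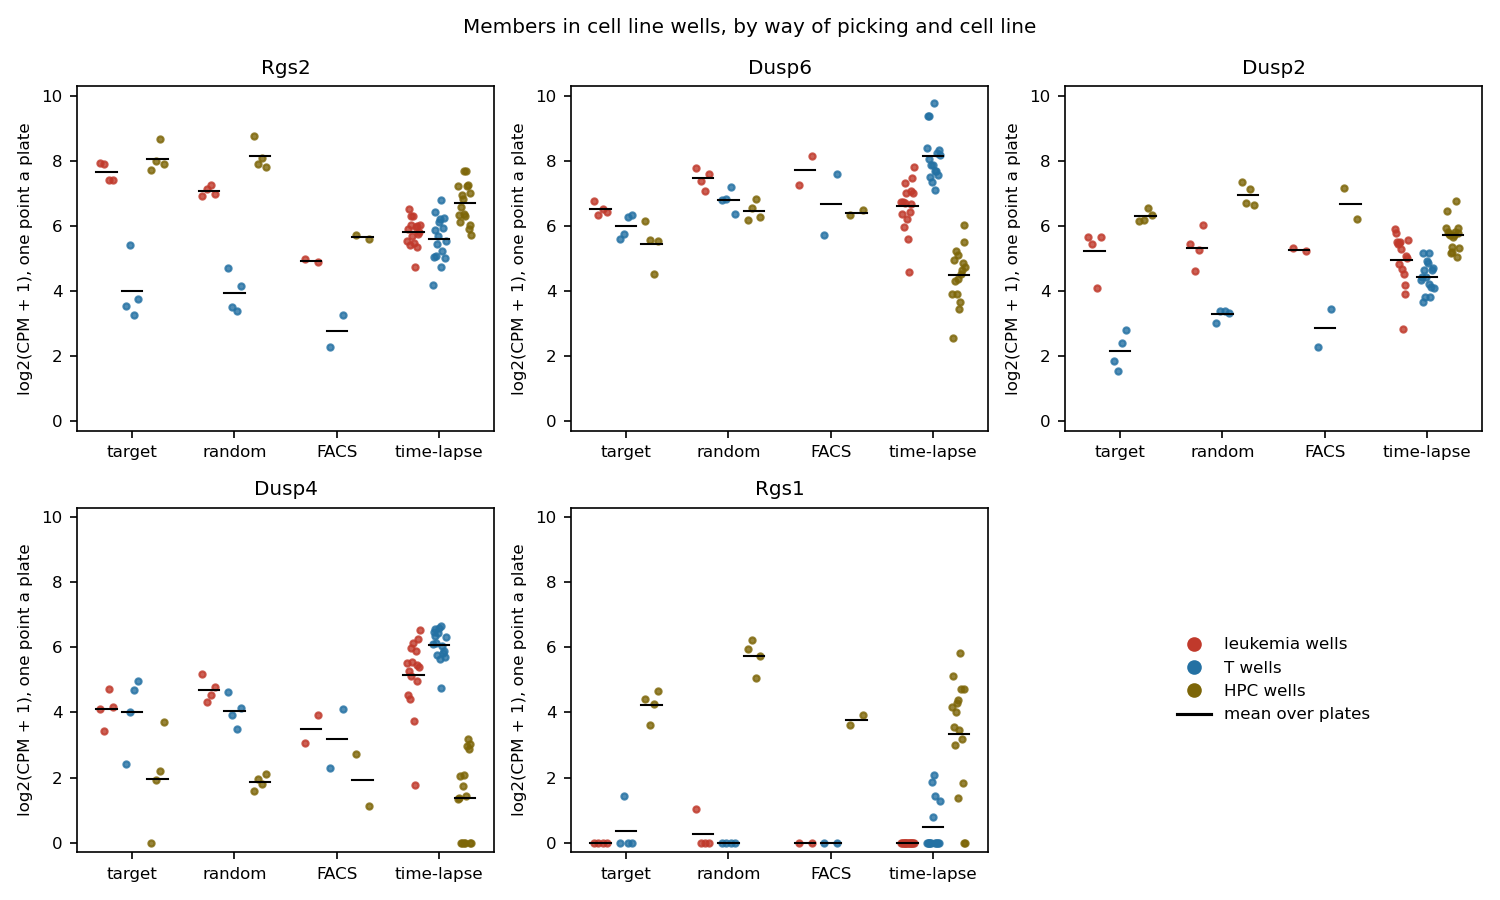
Levels of the 5 members with at least 10 CPM in some group, as log2(CPM + 1) on the vertical axis, by way of picking and line. Each point is the sum of 1 line on 1 plate and bars are means over plates. Rgs2 and Dusp2 are low in T wells of the target, random and FACS plates, Dusp4 is low and Rgs1 high in HPC wells, and time-lapse T points lie above random T points for Rgs2, Dusp2, Dusp4 and Dusp6 in the mean.

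**Figure D2:**
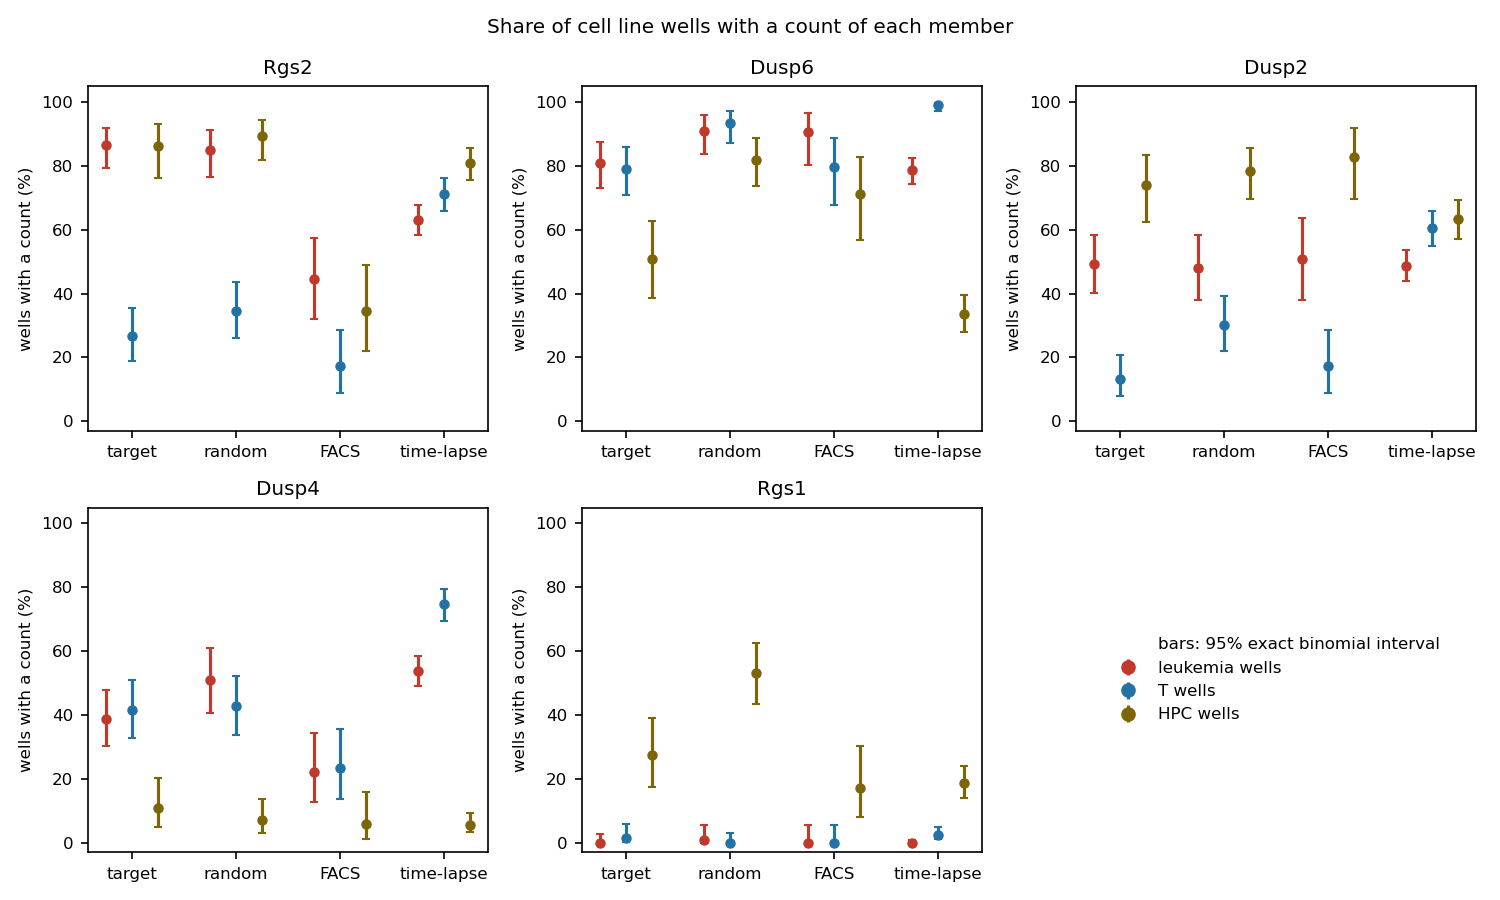
Share of wells with at least 1 count, in percent, for the same members and groups. Bars are exact 95% binomial intervals, and 99.1% of time-lapse T wells against 33.6% of time-lapse HPC wells held Dusp6.

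The member counts of the line comparisons stand beside large backgrounds. Of the 4 members tested (at least 10 CPM in 1 of the 2 groups), 0 were higher and 2 lower in T than in leukemia target wells, where 14.8% and 12.2% of all 8263 genes tested were higher and lower. Of 5 tested, 2 were higher (Dusp2, Rgs1) and 2 lower (Dusp4, Dusp6) in HPC than in leukemia wells, with 13.1% and 12.7% of all genes. Of 5 tested, 3 were higher (Dusp2, Rgs1, Rgs2) and 1 lower (Dusp4) in HPC than in T wells, with 13.2% and 15.3% of all genes. The members' median differences were -1.80, 0.41 and 3.88, against 0.01, -0.12 and -0.12 over all genes tested. Since the members were chosen with these levels known, the counts describe them and nothing more.

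Other genes of the same pathways were listed by family. In HPC against T target wells, 2 of 8 tested other Dusp genes were higher, 1 was lower, and the family's median was -0.27. Dusp3, a small phosphatase without a MAP kinase binding domain, stood at 39.2 CPM in HPC and at 0 in T wells. Dusp10, a phosphatase of p38 and JNK, was lower (-2.66). Both tested Sprouty and Spred genes were higher: Spred1, an inhibitor of Ras activation, at 61.5 against 0.631 CPM, and Spry2 at 20.96 CPM against 0. Of 6 tested other Rgs genes, 3 were higher, led by Rgs18, a regulator of blood cells and platelets (28.97 against 0.210 CPM), and 2 were lower. Of 18 tested genes of the ERK cascade, 2 were higher and 3 lower, with Rasgrp1, a Ras activator of lymphocytes, at 5.44 against 88.9 CPM and its relative Rasgrp2 at 34.005 against 1.08 CPM. Of 8 chemokine and lipid receptor genes, whose signals Rgs proteins shorten, 2 were higher and 4 lower, and Ccr2, a monocyte chemokine receptor, led the higher ones (347 against 0.210 CPM). In T against leukemia wells, 1 of 7 other Dusp genes was lower (Dusp16, a JNK phosphatase, -2.43), 2 of 2 Sprouty and Spred genes were lower (Spred1 -5.45, Spry4 -2.34), and 1 of 4 other Rgs genes was higher (Rgs10 4.28).

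The way of picking went with the level of Rgs2 within a line. FACS wells held 30.7 and 28.5 CPM of Rgs2 in leukemia wells, 52.1 and 47.6 CPM in HPC wells and 3.87 and 8.51 CPM in T wells on the 2 plates. All of these lie below every target plate of the same line. Random wells held 119, 139.6, 152 and 125.5 CPM in leukemia wells, 433, 236, 268 and 226 CPM in HPC wells and 24.98, 10.4, 9.51 and 16.7 CPM in T wells, also above both FACS plates. Target wells exceeded FACS wells by 2.73 (plate pairs 2.42 to 3.04) in leukemia, a count ratio of 6.97 (5.25 to 9.44), and by 2.40 (1.97 to 3.07) in HPC wells, a ratio of 5.55 (4.29 to 7.31). In T wells the difference was 1.23 (0.02 to 3.12), and 0.76 without target plate 2, which held 41.2 CPM, and 0.75 without FACS plate 1. Rgs2 was found in 44.4% of FACS leukemia wells (31.9 to 57.5) and 34.6% of FACS HPC wells (21.97 to 49.1). Thinned to 27000 counts, with shallower wells left out, these shares were 46.4% of 28 leukemia and 42.9% of 21 HPC wells in FACS, against 86.5% of 89 and 80.4% of 56 target wells. This left out 35 of 63 FACS leukemia and 31 of 52 FACS HPC wells. Target and random wells share no plate with FACS wells, so the way of picking and the plate cannot be told apart, and Rn45s stood at 11.49% of target and 6.06% of FACS leukemia counts, whose part in the result was not tested beyond leaving it out of the totals.

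Dusp6 differed the other way between target and FACS wells. FACS leukemia wells held 152 and 283 CPM and FACS HPC wells 79.2 and 89.2 CPM, above all target plates of those lines. The T wells of the FACS plates held 51.6 and 193 CPM and overlapped with target wells. Random wells held 133 to 217 CPM in leukemia, 81.1 to 144 CPM in T and 71.1 to 114 CPM in HPC wells. Unlike for Rgs2, these ranges overlapped with those of the FACS plates in each line. The differences of target from FACS wells were -1.20 (-1.82 to -0.50) in leukemia, -0.67 (-2.01 to 0.62) in T and -0.97 (-1.98 to -0.19) in HPC wells. Without FACS plate 2 the leukemia difference was -0.75 and no longer counted, and without the 3 wells of other profiles the HPC difference was -1.14 and did. The HPC difference also counted without target plate 1 (-1.21), 2 (-1.02) or 4 (-1.004) or FACS plate 1 (-1.06), and the T difference without FACS plate 1 (-1.61). Dusp2 (-0.05 in leukemia and -0.38 in HPC wells), Dusp4 (0.60 in leukemia wells) and Rgs1 (0.46 in HPC wells) differed by less than 1. Without FACS plate 2 the Dusp4 difference was 1.03 in leukemia and 1.74 in T wells, and both counted.

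Over the 3 lines, 1, 1 and 1 of 4, 3 and 4 members tested were higher in target than in FACS wells in leukemia, T and HPC wells, all of them Rgs2, where 0.913%, 1.51% and 2.52% of all genes tested were. In leukemia wells 1 member was lower, with a background of 0.978%, and in T and HPC wells 0 were, with 1.01% and 4.49%. None of the tested other Rgs genes (3, 4 and 6 in the lines) was higher or lower. Of the other Dusp genes, Dusp1, an immediate early phosphatase, was higher in T (29.3 against 4.42 CPM) and HPC wells (20.7 against 4.58 CPM), and 0 of 7 were in leukemia wells. Of ERK-responsive genes, Fos (4.65) and Egr1 (2.15), both immediate early transcription factors, were the 2 of 6 higher in T wells. In HPC wells 2 of 11 were higher and 3 lower, among them Myc, a growth-promoting transcription factor (-2.08), and Spry4 (-1.38).

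Random and target wells were both picked by ALPS without time-lapse imaging. In leukemia wells 0 of 4 members counted as higher or lower (backgrounds 0.277% and 0.0659%). The Dusp6 difference was above 0 in all 16 plate pairs there, at 0.95 (0.30 to 1.44), and counted without target plate 1 (1.04) or random plate 3 (1.08). The Rgs2 difference was below 0 in all of them, at -0.59 (-1.01 to -0.15). In T wells 0 of 3 counted (0.233% and 0.168%), with Dusp6 at 0.81 (0.03 to 1.59). In HPC wells 2 of 4 were higher and 0 lower (3.03% and 0.161%). Rgs1 stood there at 60.3, 73.4, 32.5 and 52.7 CPM in random wells, above every target plate, a difference of 1.51 (0.41 to 2.60). Its share of wells was 53.2% in random and 27.4% in target wells, or 40.6 and 26.8% at 27000 counts. Dusp6 was higher by 1.02 (0.03 to 2.33), a value that fell below 1 without target plate 3 (0.71), random plate 2 (0.99) or random plate 3 (0.89). The Dusp2 difference was above 0 in all plate pairs, at 0.65 (0.09 to 1.20), and did not count. In the same HPC wells Dusp1 (1.06), Fos (1.95) and Egr3 (2.10), all immediate early genes, were higher. In this comparison 3 of 13 ERK-responsive genes were higher and 0 lower.

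**Figure D3:**
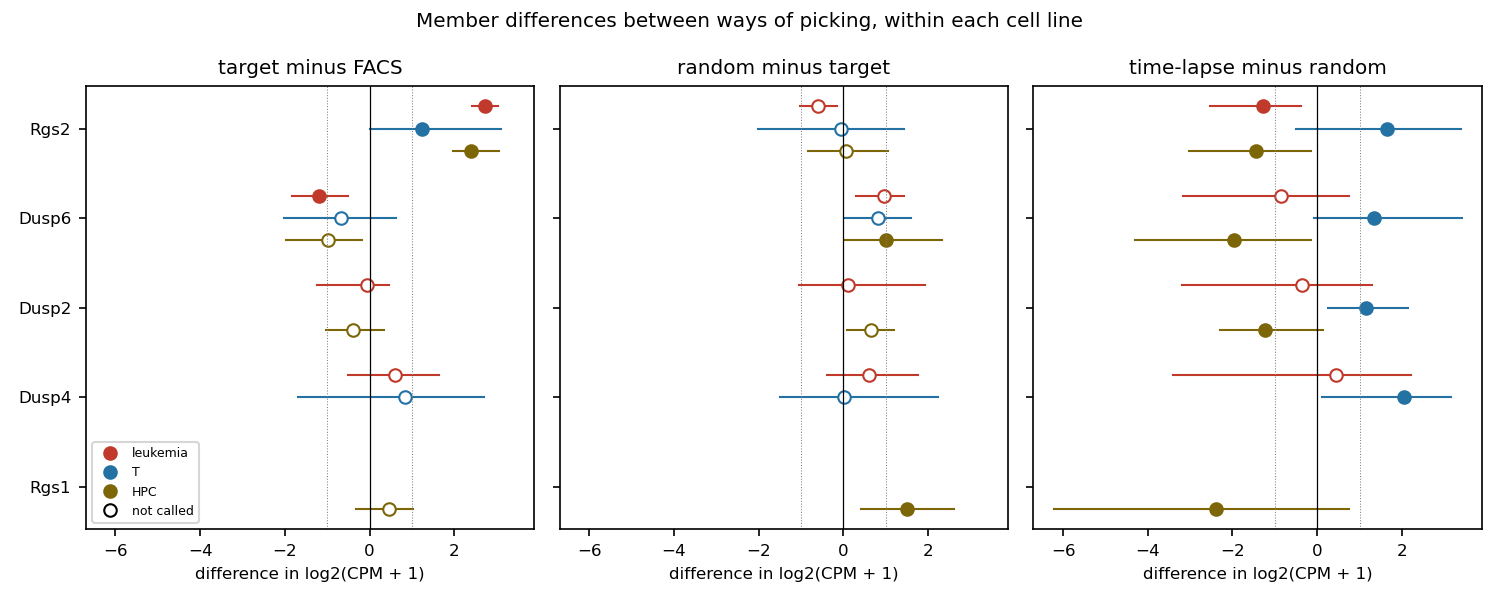
Differences in log2(CPM + 1) between ways of picking within each line, on the horizontal axis, for the members with at least 10 CPM in 1 of the groups. Points are means, lines run from the lowest to the highest plate pair, and filled points count as higher or lower. Rgs2 lies at 2.73, 1.23 and 2.40 in target minus FACS, and time-lapse minus random lies above 0 in T wells and below 0 in HPC wells for Rgs2, Dusp6 and Dusp2.

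Time-lapse HPC wells held less of every tested member than random HPC wells. Dusp6 ran from 4.83 to 63.7 CPM over 16 plates (median 23.03) against 71.1 to 114 in random HPC wells, with no overlap, and the difference was -1.97 (-4.30 to -0.16). Rgs2 ran from 51.9 to 205 CPM (median 104), below every random plate, a difference of -1.44 (-3.04 to -0.14). Dusp2 ran from 32.1 to 108 CPM (median 52.3), and only its highest plate reached the random range of 98.8 to 161, a difference of -1.23 (-2.29 to 0.13). Rgs1 ran from 0 to 55.4 CPM (median 12.95), a difference of -2.39 (-6.22 to 0.75). Target HPC wells (11.3 to 24.2 CPM) and FACS HPC wells (11.3 to 14.3 CPM) lay inside this time-lapse range of Rgs1. For Dusp6, target HPC wells (21.8 to 69.4 CPM) overlapped with time-lapse ones and FACS HPC wells (79.2 to 89.2 CPM) lay above them. For Rgs2, target HPC wells (207 to 407 CPM) lay above and FACS HPC wells (47.6 to 52.1 CPM) at the low end. Against random wells all 4 tested members were lower, where 10.2% of all genes tested were lower, and 0 were higher, where 5.44% were. Their median was -1.70, against -0.08 over all genes. The share of wells with Dusp6 was 33.6% (27.9 to 39.7) against 81.98% (73.6 to 88.6), or 35.2 against 85.5% at 27000 counts.

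These wells were chosen by their likeness to the HPC profile, which holds the progenitor genes, so the levels of those genes are a description. The 5 genes Cd34, Flt3, Spi1, Kit and Hoxa9 summed to 520 to 1006 CPM on the time-lapse plates and to 708 to 852 CPM on the random plates. Of the monocyte list 2 of 7 tested genes were lower in the same wells (Ccr2 and Lst1), of the NK cell list 1 of 3 (Nkg7), and of the T cell list 1 of 1 was higher (Il7r), and their part in the result was not tested. Of the ERK-responsive genes, 8 of 13 were lower and 0 higher, with a median of -1.72. The lower ones include Ccnd1, the D1 cyclin (4.10 against 77.9 CPM), Fos (7.89 against 181 CPM), Myc (17.8 against 91.02 CPM) and Ier2, an immediate early gene (40.1 against 122 CPM). Of 7 other Dusp genes 3 were lower, such as Dusp7, an ERK phosphatase (-1.88), and Dusp1 (-1.48). Of 6 other Rgs genes 0 were lower, and of 17 tested genes of the ERK cascade itself 0 were higher or lower (median 0.05). Of 6 receptor genes, Ccr2 was lower (-2.18) and Cxcr4, the receptor of the chemokine Cxcl12, was higher (1.36).

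In time-lapse leukemia wells 1 member counted as different from random wells. Rgs2 ran from 25.5 to 90.98 CPM (median 57.1), below all 4 random plates, with a difference of -1.27 (-2.53 to -0.38). This was 1 of 4 tested members, where 1.28% of all genes were lower, and 0 were higher, where 1.15% were. A count was found in 63.2% of wells (58.4 to 67.7) against 85% (76.5 to 91.4), or 56.95 against 84.3% at 27000 counts. The Dusp6 difference was -0.85 (-3.18 to 0.75), below 0 in 87.5% of plate pairs, and those of Dusp2 (-0.37, -3.20 to 1.29) and Dusp4 (0.45, -3.40 to 2.21) had both signs over plate pairs. Time-lapse plate 10 was the lowest for all 4 members in leukemia wells, with 6.07 CPM of Dusp2, 2.43 of Dusp4, 23.1 of Dusp6 and 25.5 of Rgs2. Without it, an alternative chosen after seeing the data, the differences were -0.22 for Dusp2, 0.68 for Dusp4, -0.72 for Dusp6 and -1.20 for Rgs2, and Rgs2 alone was lower. Of the NK cell list 1 of 2 tested genes was lower in the same wells (Klrd1, -1.30). Of the 8 tested ERK-responsive genes 0 were higher or lower.

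Time-lapse wells closest to the T profile had the opposite direction. Dusp6 ran from 136 to 872 CPM (median 248) against 81.1 to 144 in random T wells, a difference of 1.35 (-0.08 to 3.41). Dusp4 ran from 25.7 to 100.1 CPM (median 68.9), above all random plates (10.2 to 23.8), a difference of 2.04 (0.11 to 3.17). Rgs2 ran from 17.3 to 110 CPM (median 47.97), with only its lowest plate inside the random range, a difference of 1.66 (-0.51 to 3.40). Dusp2 ran from 11.6 to 35.1 CPM (median 20.5), above all random plates, a difference of 1.16 (0.26 to 2.15), or 0.91 with a pseudocount of 5 CPM, which does not count. All 4 tested members were higher, where 10.1% of all genes tested were higher, and 0 were lower, where 10.7% were. The shares of wells at 27000 counts were 95.5 against 78.4% for Dusp6, 59.2 against 29.3% for Dusp4, 49.8 against 21.6% for Rgs2 and 39.9 against 16.4% for Dusp2.

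These wells did not carry the T line's markers at the same levels. Thy1, the T cell surface glycoprotein, stood at 6.21 CPM against 656 CPM in random T wells, Lat at 141 against 469 CPM and Lck at 39.9 against 103 CPM. Bcl11b (397 against 325 CPM) and Cd3e (137 against 183 CPM) were near their random levels. The 5 genes summed to 557 to 915 CPM over the time-lapse plates against 1694 to 1796 CPM in random T wells. Markers of other cell types were higher in the same wells. The B cell list summed to 2.10 to 89.1 CPM over the time-lapse plates against 0 to 2.20 CPM in random T wells, with Cd74 higher (3.29) and Ms4a1, Pax5, H2-Aa and Blk of its 11 genes at 0. The monocyte list of 10 genes, with 0 genes at 0, summed to 24.3 to 114 against 15.7 to 26.2 CPM, with Itgam (3.68) and Cd68 (1.82) higher. The NK cell list summed to 4.52 to 49.7 against 0.500 to 3.66 CPM, with Gzma higher (3.58) and 6 of its 12 genes at 0, among them Ncr1, Prf1 and Eomes. Their part in the members' differences was not tested. The median gap to the second best profile was 0.09 on the correlation scale against 0.148 in random T wells. The values therefore compare wells that resemble the T profile most, and whether they are the same line cannot be told apart from the time-lapse plates. In the same wells 5 of 9 tested ERK-responsive genes were higher and 1 lower, with Egr1 at 139 against 11.4 CPM, Ier3 at 33.6 against 4.03 CPM and Myc at 184 against 64.2 CPM. Of 7 other Dusp genes 1 was higher (Dusp16, 2.84) and 2 were lower, among them Dusp7 (-2.10). Of 4 other Rgs genes 0 were higher and 2 lower (Rgs3 -1.60, Rgs14 -1.33). Of 8 receptor genes 4 were higher and 1 lower, the higher ones including Cxcr4 (121 against 30.2 CPM) and Cxcr5, at 24.9 CPM and 0.

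Dusp6 was uneven over the time-lapse plates in these wells. Plates 2, 4 and 9 held 662, 671 and 872 CPM from 19, 6 and 10 wells, and the other 13 plates 136 to 337 CPM. On these 3 plates each of the wells held a Dusp6 count, with medians of 22, 33.5 and 58.5 counts a well. Each well also held one on all other plates but 5, 11 and 12, and plate 13 had a median of 21 counts. The leukemia wells of the same plates held 81.2, 60.96 and 47.9 CPM and the HPC wells 4.83, 18.7 and 9.99 CPM, all below the median of their groups. Median totals of the T-profile wells there were 47254, 43367 and 62024 counts, against 58932 over all plates. Without these plates, chosen after seeing the values, the difference from random T wells was 1.04 for Dusp6, and the same 4 members were higher.

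**Figure D4:**
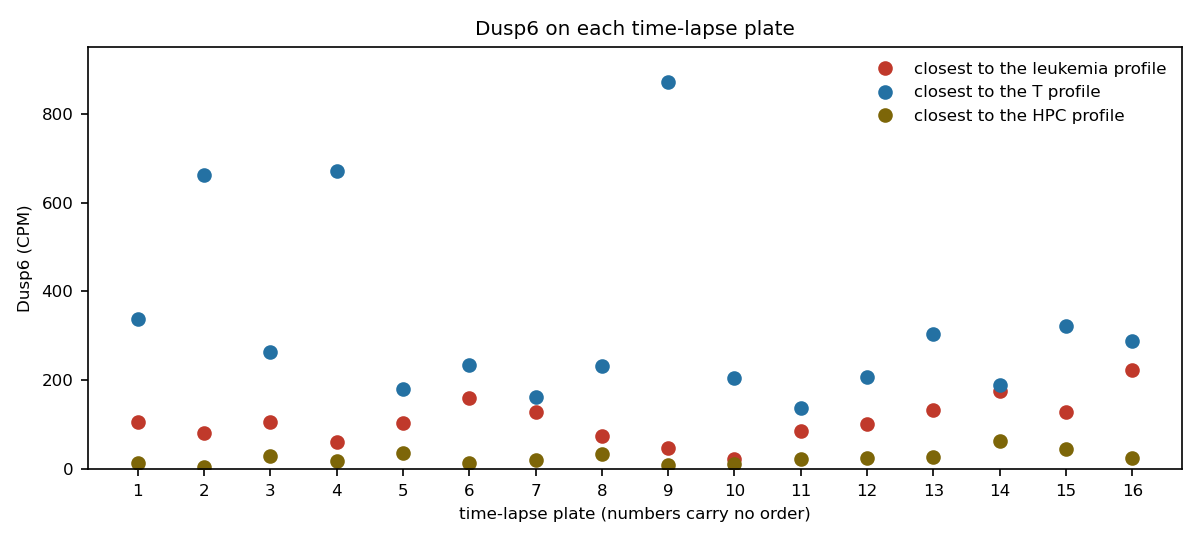
Dusp6 in CPM, on the vertical axis, on each of the 16 time-lapse plates, by the line whose profile the wells resemble most. Wells closest to the T profile hold the highest level on every plate, with 662, 671 and 872 CPM on plates 2, 4 and 9, and wells closest to the HPC profile hold 4.83 to 63.7 CPM.

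Within a line the counts were spread unevenly over wells. The tenth of the wells with the most counts held 29.6% of the Rgs2 counts in target leukemia wells, 39.8% in target HPC wells and 33.2% of the Dusp6 counts in target leukemia wells. For Rgs1 in time-lapse HPC wells it held 83.2% of 134 counts, with up to 19 counts in 1 well and a median of 1 where present. The median number of the 8 members with a count was 3 in target leukemia and HPC wells and 2 in target T wells.

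Over 78 sums of a line on a plate, Dusp2 and Rgs2 varied together (Pearson r of log2(CPM + 1) 0.76), as did Dusp4 and Dusp6 (0.76), while Dusp4 and Rgs1 varied oppositely (-0.69). These sums share lines and plates, so r can repeat the line differences above and has no p-value. No r within a line was computed. The genes with the most similar pattern were Selplg, Nrros and B2m for Dusp2 (0.84, 0.82 and 0.82), Zmpste24 and Ublcp1 for Dusp4 (0.87 and 0.86) and Atox1, Cd3eap and Mrps18b for Dusp6 (0.85, 0.85 and 0.84). For Rgs1 they were Rasgef1b, Atf3 and Dab2 (0.94, 0.93 and 0.93), and for Rgs2 Stap1, AI662270 and Selplg (0.79, 0.78 and 0.76).

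In PBMC the members were found by few counts, and the median well held 2147 counts. Clustering without the members gave T cell-like (130 wells), B cell-like (93) and NK cell-like wells (33), and 1 cluster of 83 wells that stays unnamed. Its leading genes were Scgb1a1, S100a9, S100a8, Hmox1, Cxcr6, Sftpc, Lgals3, Rora, Scgb3a2 and S100a4. They are mixed, with lung secretory genes (Scgb1a1, Sftpc) and neutrophil genes (S100a8, S100a9) among them. Of the listed markers, 4 T cell, 3 NK cell, 1 monocyte and 0 neutrophil ones passed the naming limits. These limits were a count in at least 20% of its wells and at least 1.5 times the share elsewhere. All 14 T cell markers are present at a sum of 3619 CPM against 6093 CPM in T cell-like wells. By the marker limits alone the cluster would have been named T cell-like. It stayed unnamed because the neutrophil genes S100a8 and S100a9 were among its leading genes. The T cell-like class therefore does not hold all wells with T cell markers.

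Dusp2 was the member found in the most PBMC wells, in 27.1% (22.5 to 32.2). Its summed level was 430 CPM in NK cell-like, 283 in unnamed, 157 in B cell-like and 90.4 in T cell-like wells, from 26, 66, 30 and 28 counts. The shares of wells were 48.5% (30.8 to 66.5), 39.8% (29.2 to 51.1), 22.6% (14.6 to 32.4) and 16.9% (10.9 to 24.5). The interval of T cell-like wells overlaps neither that of NK cell-like nor that of unnamed wells, and neighbours in this order overlap. At 1500 counts the shares were 42.9, 30.1, 18.5 and 10.1%. Over the 8 plates the level ran from 107 to 291 CPM.

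Rgs2 stood at 182 CPM in NK cell-like, 152 in B cell-like, 133 in unnamed and 54.9 in T cell-like wells, and was found in 30.3, 16.1, 25.3 and 10.8% of wells, with overlapping intervals. Rgs1 was found in 25.3% of the unnamed wells (16.4 to 36.0) at 120 CPM, from 28 of its 32 counts. In T cell-like wells it was found in 0.769% (0.0195 to 4.21), in B cell-like wells in 0 of 93 wells, which allows up to 3.23%, and in NK cell-like wells in 6.06% (0.743 to 20.2). At 1500 counts the unnamed share was 13.7% and the T cell-like share 0.840%. Over the 8 plates the Rgs1 level was uneven, from 13.3 to 126 CPM. Of the unnamed wells, 4 held a count of any of 7 neutrophil genes, and none of these 4 held Rgs1. Without them the Rgs1 share was 26.6% (17.3 to 37.7) and that of Dusp2 39.2%.

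Dusp6 had 12 counts in 9 PBMC wells, 8 of the counts in B cell-like wells and 0 in T cell-like wells, which allows up to 2.31% of wells there. Dusp4 had 6 counts and Rgs16 had 1, while Dusp5 and Spry1 had 0 in 339 wells, which allows a share of up to 0.885%. PBMC wells were about an order of magnitude shallower than cell line wells, so their shares are not set against those of the lines.

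**Figure D5:**
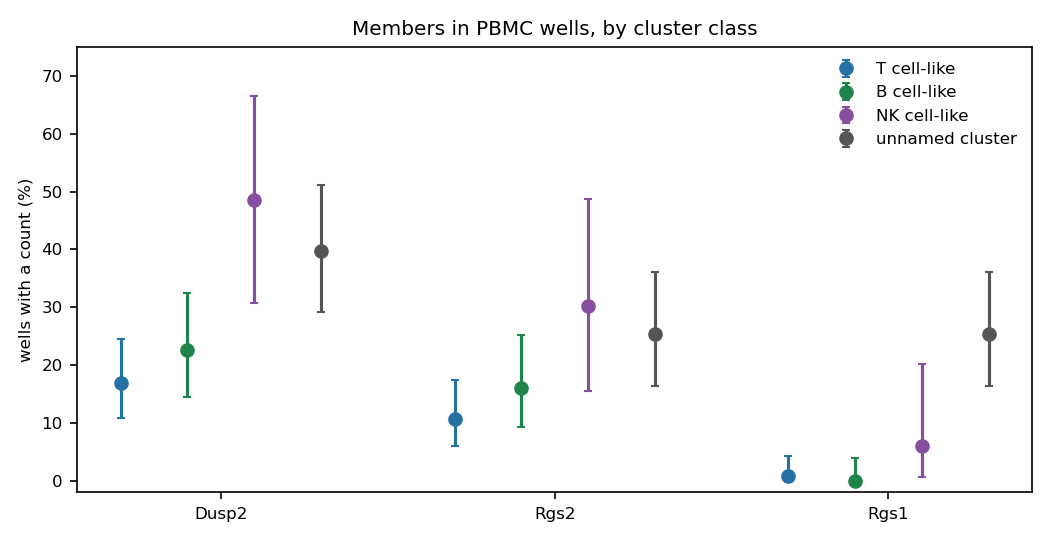
Share of PBMC wells with at least 1 count of Dusp2, Rgs2 or Rgs1, in percent, by cluster class, with exact 95% binomial intervals. Rgs1 reaches 25.3% in the unnamed cluster, which also carries T cell markers, and at most 6.06% in the named classes. Dusp2 runs from 16.9% in T cell-like to 48.5% in NK cell-like wells.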

How the data were processed

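RNA was counted in single wells with a primer carrying molecular barcodes, per the labels' protocols. The authors deposited expected counts, which are estimated molecule numbers without scaling between wells; 5.31% (cell lines) and 5.15% (PBMC) of the positive ones were not whole. The submitters' processing notes name bcl2fastq, STAR and mm10. Versions, counter, annotation and well filters were not given in the sources used here. Totals ran from 10005 to 140363 counts in cell line wells and from 1014 to 7992 in the PBMC wells used.

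Groups came from the labels, except that random, FACS and time-lapse wells took the line of the target profile with the highest Spearman correlation, with members and, for target wells, the own plate left out. Counts were summed per plate and line where at least 5 wells were present, scaled to CPM, and compared as log2(CPM + 1), within plates for lines on target plates and over all plate pairs otherwise. A gene was tested at 10 CPM or more in 1 of the 2 groups. No p-value was computed, since no label gives the animal or culture of a well. Members and gene lists were chosen with earlier results of these data known. Besides the members, up to 4 genes of a list with the highest mean CPM and 2 with the largest counted differences could be named. The closest genes were the 3 with the highest Pearson r, of which 1 is not reported here. No doublet caller was run on wells of 1 cell. PBMC wells with at least 300 genes were clustered with scanpy 1.11.5 and Leiden (resolution 1, 15 neighbours, 30 components, 2000 variable genes, seed 1), without the members and Rn45s, and named by at least 3 listed markers. A cluster whose leading genes held more markers of another type stayed unnamed. Wells were thinned to 27000 counts (cell lines) or 1500 (PBMC), and shallower wells were left out of the thinned shares. In the order leukemia, T and HPC these were 37, 14 and 17 target, 17, 3 and 42 random, 35, 26 and 31 FACS and 55, 6 and 83 time-lapse wells. In PBMC they were 10 wells of the unnamed cluster and 12 NK, 28 B and 11 T cell-like wells. Figures were drawn with matplotlib 3.10.9, sums were made with pandas 2.3.3 and numpy 2.4.6, and intervals came from scipy 1.17.1, all under python 3.11.15. Alternatives were another pseudocount, no minimum CPM, Rn45s left out, means of single wells, other assignments of wells and each target, random or FACS plate left out.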

Additional observations from a re-analysis of the deposited data

Results flagged for a closer look

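In 26 groups of 4 to 10 plates, the highest and lowest plate were compared with the others by Dixon's rule at 95%, which chance passes in about 1 in 20 groups. Rgs2 in target T wells stood at 41.2 CPM on plate 2, far above the other 3 plates (8.63 to 12.6 CPM). Dusp6 in PBMC stood at 65.6 CPM on plate 1, from 7 of its 12 counts, against at most 16.03 CPM on the other plates. Rgs1 in PBMC stood at 126 CPM on plate 2, from 9 of its 32 counts in 5 wells, against 13.3 to 65.6 CPM on the other plates.

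For 3 members, time-lapse wells differed from random wells in opposite directions in 2 lines. The time-lapse minus random difference of the T-profile wells exceeded that of the HPC wells by 2.39 for Dusp2, 3.32 for Dusp6 and 3.09 for Rgs2 (log2 scale). For Rgs2 it exceeded that of the leukemia wells by 2.93. These values compare differences and not the levels of the lines. These differences were not tested, since each group counts as 1 sample. The low Thy1 of the T-profile wells of the time-lapse plates (6.21 CPM) stands beside each of them, and its part in the result was not tested.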

How the results depend on the processing

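The 24 counts of members called higher or lower were recomputed under 274 alternatives, of which 242 stayed within 1.5 times and 32 moved, by 1 or 2 members. With a pseudocount of 5 CPM the counts were 1 higher and 1 lower for HPC against leukemia target wells (2 and 2 before), 0 higher for target against FACS T wells and 1 higher for random against target HPC wells. Without a minimum CPM, 2 were higher in target than FACS T wells, and 1 was higher and 1 lower in random than target T wells. With means of single wells 1 was higher in random than target leukemia wells. With Rn45s left out 1 was higher in random than target HPC wells. With wells of other profiles left out, 1 was lower in target than FACS HPC wells. With FACS wells by label, which mixes the lines, target against FACS gave 0 lower in leukemia, 0 higher and 2 lower in T, and 3 higher and 1 lower in HPC wells, and the Rgs2 difference in T wells turned from 1.23 to -0.58.

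Leaving out 1 plate at a time gave ranges of 1 to 2 higher and 1 to 2 lower for HPC against leukemia, 1 to 2 higher and 0 to 1 lower for target against FACS leukemia, 0 to 2 higher and 0 to 1 lower for target against FACS T, 0 to 1 lower for target against FACS HPC, 0 to 1 higher for random against target leukemia and 1 to 2 higher for random against target HPC wells. Of 48 member differences, 529 of 539 alternatives stayed within the SD of the main differences. That SD was over plates for lines and over plate pairs, which share plates, for ways of picking. Leaving out 1 target, random or FACS plate cannot move a mean by that much, and the minimum CPM does not enter a difference. Those alternatives were bound to stay within the SD, so this count does not measure how stable the differences are. For shares, 178 of 200 alternatives stayed within the interval, and those that moved were thinned ones, which also leave out the shallower wells, so that some shares were higher, as for Dusp6 in FACS T wells (94.7% of 38 wells against 79.7% of 64). Thinned PBMC shares were not among these alternatives. Rgs1 in unnamed wells (13.7%, interval 16.4 to 36.0) and Dusp2 in T cell-like wells (10.1%, interval 10.9 to 24.5) fell below their intervals when thinned. Dusp2 in NK cell-like wells (42.9%, interval 30.8 to 66.5) stayed inside. All 88 alternatives of the PBMC levels stayed within the SD over plates. Most of them left 1 of 8 plates out of a level pooled over plates, which shifts it little against that SD. Single plates ran from 13.3 to 126 CPM for Rgs1 and from 0 to 65.6 CPM for Dusp6. Lines were compared within target plates as the main setting. No paired analysis was possible between ways of picking because they share no plate. Few counts limit Dusp5, Spry1 and Rgs16, and PBMC depth limits every PBMC share.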
